A study of Mus musculus with 41 samples.

Results

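The genes described here are 8 genes by which Purkinje cells of the cerebellum are commonly recognised, *Calb1*, *Pcp2*, *Pcp4*, *Car8*, *Itpr1*, *Pvalb*, *Rora* and *Slc1a6*, out of 22438 genes with deposited footprint counts. They were chosen by symbol and read in the 6 cerebellum libraries of a study of *Hbs1l*, which encodes a ribosome rescue factor. Each library was made from the cerebellum of 1 mouse of either sex at P14. The strain is labelled C57BL/6J, while the study's methods describe *Hbs1l* alleles on C57BL/6N crossed to mice with the C57BL/6J allele of *n-Tr20*, so the background may be a mix of both substrains. The 3 controls were Tg(Atoh1-Cre); *Hbs1l* +/+ and the 3 conditional knockouts (cKO) are listed in the study's genotype table as Tg(Atoh1-Cre); *Hbs1l* fl/-, so that both groups carried the *Cre* transgene. That table also gives the cKO mice the C57BL/6J allele of *n-Tr20*, a brain tRNA gene for the arginine codon AGA. The transgene drives recombination in the granule cell lineage, more in anterior than in posterior lobules, and all other cells of a cKO mouse, Purkinje cells included, are expected to keep 1 floxed and 1 null allele. Purkinje cells are therefore expected to retain *Hbs1l* beside granule cells expected to lose it, although *Hbs1l* was not measured by cell type. The comparison asks whether footprints of Purkinje cell genes differed in that setting. Without RNA from cerebella it cannot separate RNA level from translation.

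Purkinje cells are the GABAergic output neurons of the cerebellar cortex. They receive excitation from the parallel fibres of granule cells and from climbing fibres, and glutamate acts on them in part through IP3, which releases calcium from internal stores. *Calb1* and *Pvalb* encode the calcium buffers calbindin and parvalbumin, *Itpr1* encodes the IP3 receptor, and *Car8* encodes a carbonic anhydrase related protein that binds this receptor. *Pcp2* encodes a modulator of G protein signalling, *Pcp4* a small calmodulin-binding protein, *Rora* a nuclear receptor needed for Purkinje cell maturation and *Slc1a6* the glutamate transporter EAAT4. Not all of them are restricted to Purkinje cells, since *Pvalb* and *Rora* are also used by molecular layer interneurons.

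The 8 genes lie on 7 chromosomes of the GRCm38 assembly in the Gencode M21 annotation. *Calb1* (ENSMUSG00000028222.2) and *Car8* (ENSMUSG00000041261.9) are both on chromosome 4, at 15881264 to 15908064 and 8143362 to 8239041. *Pcp2* (ENSMUSG00000004630.18) is on chromosome 8 at 3623371 to 3625545, *Pcp4* (ENSMUSG00000090223.2) on chromosome 16 at 96467606 to 96525793 and *Itpr1* (ENSMUSG00000030102.11) on chromosome 6 at 108213096 to 108551109. *Pvalb* (ENSMUSG00000005716.16) is on chromosome 15 at 78191114 to 78206400, *Rora* (ENSMUSG00000032238.17) on chromosome 9 at 68653786 to 69388246 and *Slc1a6* (ENSMUSG00000005357.9) on chromosome 10 at 78780496 to 78814765. Their annotated coding sequence, merged over transcripts, ranged from 330 bases for *Pvalb* to 8296 bases for *Itpr1*. Footprints were counted on coding exons, so these lengths set how many fragments a gene can collect at a given ribosome density.

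*Pcp4* needs a caution before its values are read. In Gencode M21, 177 of the 186 coding bases of its transcript Pcp4-201 also belong, on the same strand, to the coding sequence of another annotated gene, an *Igsf5* entry (ENSMUSG00000117081.1). Merged over all its transcripts, *Pcp4* has 388 coding bases, of which the same 177 are shared. The *Igsf5* entry had 0 fragments in each of the 6 libraries. The counting tool leaves out reads on several genes by default, and the setting used is not given in the sources used here, so the count of *Pcp4* cannot be taken as its level. None of the other 7 genes shares coding bases with another gene. The coding sequence of Pcp4-201 is shown because it carries this limit, on GRCm38 chromosome 16 between 96467782 and 96525514 on the plus strand, spliced from 3 coding exons, with the 9 bases that belong to *Pcp4* alone in capitals.
Pcp4-201: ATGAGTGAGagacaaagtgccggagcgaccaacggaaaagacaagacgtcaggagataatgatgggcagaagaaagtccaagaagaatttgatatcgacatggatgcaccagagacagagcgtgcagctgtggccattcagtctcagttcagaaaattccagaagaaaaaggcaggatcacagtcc

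Footprints of these genes, which are fragments of RNA shielded by ribosomes, made up between 1.39% and 1.48% of all fragments in control replicates 1 and 2 and 0.878% in control replicate 3. In cKO cerebella they made up 0.731%, 0.861% and 0.666%. Libraries held between 10919139 and 22591768 fragments, and *Hbs1l* itself was at 37.8, 40.0 and 44.7 CPM in controls and 14.9, 15.7 and 12.8 CPM in cKO cerebella, where CPM are counts scaled to library size with edgeR's TMM factors. Its log2 fold change was -1.50 (SE 0.13, adjusted p = 0.0128, edgeR's quasi-likelihood test). These counts are per gene and may include isoform II, a shorter product of *Hbs1l*. In embryos lacking full-length *Hbs1l* the study found no significant change of isoform II. The values may therefore not track the full-length form alone. *Pelo*, the partner of *Hbs1l*, was at 26.5 ± 4.91 CPM in controls and 26.9 ± 1.01 in cKO (SD, n = 3). Control replicate 3 stood apart from the other controls. The root mean square of its log2 differences from their mean was 0.458, against 0.280 to 0.377 for the other controls and 0.318 to 0.424 within the cKO group. Deviations of single libraries from their group were related to coding length in both groups, with a Spearman correlation across genes of 0.53 for control replicate 1, 0.15 for control replicate 2, -0.43 for control replicate 3 and 0.43, 0.11 and -0.57 for cKO replicates 1 to 3. For control replicate 3 this was a median log2 difference of 0.21 among the 2912 genes of shortest coding sequence and -0.23 among the 2910 longest, when genes of at least 5 CPM are divided into 4 length classes. Fold changes of the 8 genes and medians of the gene lists are therefore given with and without that library. cKO replicate 3, with a correlation of -0.57, was kept in both. Without control replicate 3 the groups may therefore not be balanced for coding length, and its part in the fold changes was not tested.

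Footprints of the 7 genes other than *Pcp4* were fewer in cKO than in control cerebella, by between 1.26-fold for *Pcp2* and 2.26-fold for *Itpr1* in the ratio of group means. No gene of the 8 passed an adjusted p of 0.05 in edgeR's quasi-likelihood test over 14430 genes, in which 0.0624% of genes passed. At an unadjusted p below 0.05 in the same test, 7 of the 8 were lower in cKO, against 6.28% of all tested genes. With 1 library left out, this count was 3 without control replicate 2 or cKO replicate 3. It was 4 without control replicate 1 or cKO replicate 1, and 7 without control replicate 3 or cKO replicate 2. Over all tested genes and both directions, 1936 had an unadjusted p below 0.05 with all 6 libraries. In the order named, this total was 1208 and 1253 in the fits with 3, and 1328 and 1129 in those with 4. It was 3544 and 2478 in the fits with 7. All 3 cKO libraries were below all 3 controls for 5 of the 8, *Calb1*, *Pcp2*, *Car8*, *Pvalb* and *Rora*, against 8.91% of all tested genes. DESeq2 called 3 of the 8 lower at an adjusted p of 0.05, against 1.4% of genes. Without control replicate 3, edgeR called 5 of the 8 lower, against 2.16% of genes. The median log2 fold change of the 8 was -0.67, beside 0.00 over all tested genes, and -0.80 beside 0.02 without control replicate 3.

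**Figure D1:**
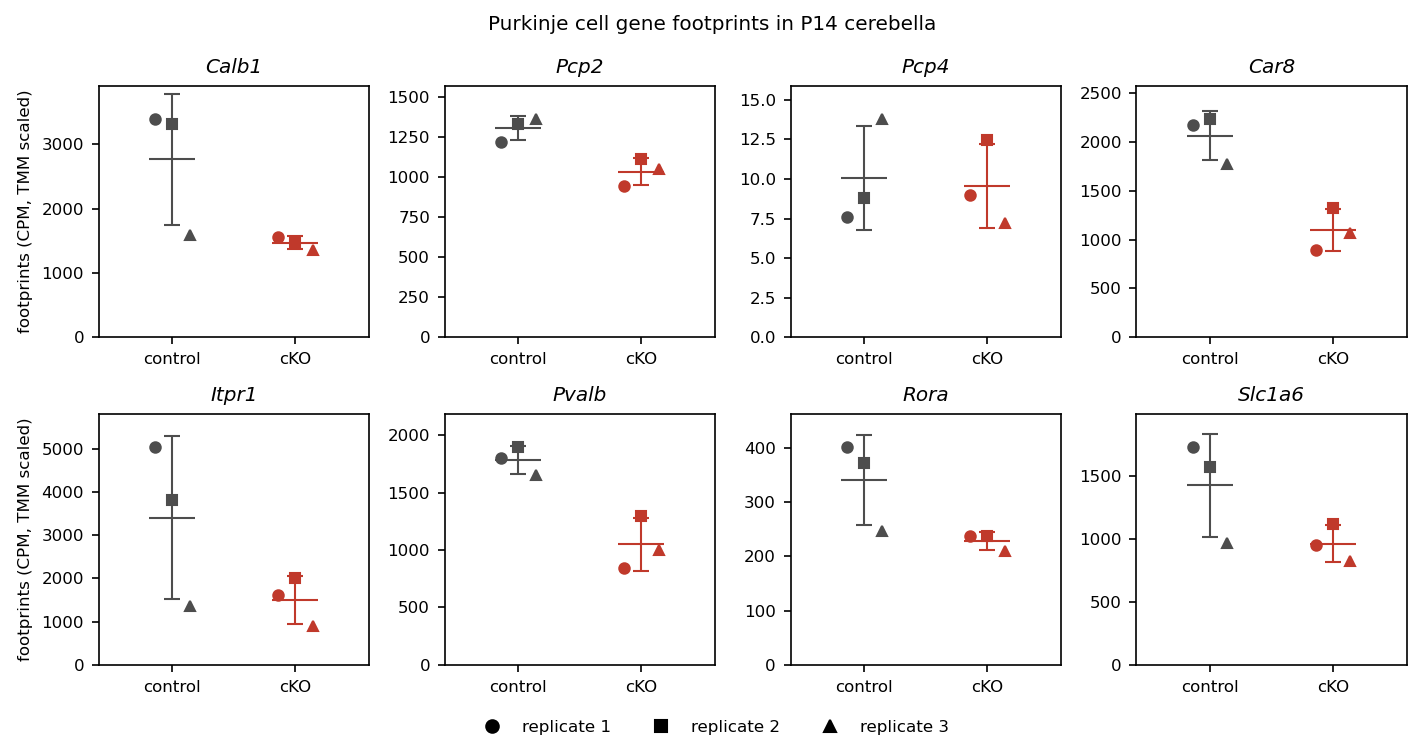
Footprints (CPM scaled with TMM factors, linear axis from 0) of each gene in 3 control and 3 cKO cerebella. Points are libraries with a symbol for each replicate number, and bars are the mean and SD of a group. Control replicate 3, the grey triangle, lies near the cKO points for *Calb1*, *Itpr1*, *Rora* and *Slc1a6*, and near the other controls for *Pcp2* and *Pvalb*.

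Among the calcium buffers, *Calb1* was at 3401, 3322 and 1596 CPM in controls 1 to 3 and at 1566, 1475 and 1363 CPM in cKO replicates 1 to 3. The 2 high controls were well above every cKO library, whereas control replicate 3 exceeded the highest cKO library only narrowly. The log2 fold change of *Calb1* was -0.92 (SE 0.27, 95% interval -1.53 to -0.30, unadjusted p = 0.0086, adjusted p = 0.202, edgeR). Without control replicate 3 it was -1.20 (adjusted p = 0.012, edgeR), and DESeq2 over all 6 libraries gave -0.93 (adjusted p = 0.0142).

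*Pvalb* was at 1801, 1901 and 1656 CPM in controls and at 847, 1298 and 1002 CPM in cKO cerebella. The groups did not overlap, and here control replicate 3 was close to the other controls. *Pvalb* had a log2 fold change of -0.77 (SE 0.18, 95% interval -1.18 to -0.36, unadjusted p = 0.00231, adjusted p = 0.132, edgeR). It was -0.82 without control replicate 3 (adjusted p = 0.0505, edgeR), and DESeq2 gave -0.78 (adjusted p = 0.00155).

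The IP3 receptor *Itpr1* had the widest spread. It was at 5046, 3812 and 1354 CPM in controls and at 1614, 1999 and 910 CPM in cKO cerebella, so that control replicate 3 lay below cKO replicates 1 and 2 and the groups overlapped. Its coefficient of variation was 55.2% in controls and 36.6% in cKO cerebella. The log2 fold change was -1.18 (SE 0.46, 95% interval -2.21 to -0.14, unadjusted p = 0.0309, adjusted p = 0.318, edgeR), the lowest point estimate of the 8 genes and the least precise. Without control replicate 3 it was -1.56 (adjusted p = 0.0358, edgeR), and without control replicate 1 it was -0.78 (adjusted p = 0.664, edgeR). DESeq2 over all 6 libraries gave -1.18 (adjusted p = 0.297). Among the controls, control replicate 3 differed from the mean of the others by -1.70 on the log2 scale for *Itpr1* and by -1.07 for *Calb1*. In that comparison the median was -0.23 in the longest length class, to which *Itpr1* belongs, and 0.21 and 0.05 in the shortest and the next, and the part of coding length in these differences was not tested.

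*Car8*, whose product binds the IP3 receptor, was at 2176, 2239 and 1779 CPM in controls and at 898, 1322 and 1070 CPM in cKO cerebella. The groups did not overlap and every control was above every cKO library. Its log2 fold change was -0.91 (SE 0.18, 95% interval -1.33 to -0.50, unadjusted p = 0.00084, adjusted p = 0.106, edgeR), with the lowest p of the 8 genes and rank 111 among all tested genes. It passed the threshold without control replicate 3 (-1.01, adjusted p = 0.026, edgeR) and with DESeq2 (-0.92, adjusted p = 9.98e-05).

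*Pcp2*, one of the most restricted Purkinje cell transcripts, was at 1218, 1332 and 1362 CPM in controls and at 940, 1108 and 1048 CPM in cKO cerebella. The groups did not overlap, yet the difference was the smallest of the 7 genes with readable counts. For *Pcp2* the log2 fold change was -0.34 (SE 0.13, 95% interval -0.64 to -0.03, unadjusted p = 0.0348, adjusted p = 0.33, edgeR). It passed the threshold neither without control replicate 3 (-0.31, adjusted p = 0.183) nor with DESeq2 (-0.35, adjusted p = 0.111).

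*Pcp4* was counted at 91, 187 and 304 fragments in controls and at 194, 137 and 169 fragments in cKO cerebella. On the CPM scale the groups overlapped, at 7.57, 8.82 and 13.8 CPM in controls and 8.97, 12.5 and 7.22 CPM in cKO cerebella. The log2 fold change of *Pcp4* was -0.10 (SE 0.28, 95% interval -0.73 to 0.54, adjusted p = 0.91, edgeR) and 0.20 without control replicate 3. Given its shared coding bases, these values describe only the reads assigned to this gene.

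*Rora* was at 403, 372 and 246 CPM in controls and at 237, 238 and 209 CPM in cKO cerebella. The groups did not overlap, but control replicate 3 was above the highest cKO library by few CPM. *Rora* had a log2 fold change of -0.58 (SE 0.19, 95% interval -1.01 to -0.15, unadjusted p = 0.0145, adjusted p = 0.245, edgeR) and -0.77 without control replicate 3 (adjusted p = 0.0204, edgeR). DESeq2 gave -0.59 (adjusted p = 0.0676).

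*Slc1a6*, the glutamate transporter on Purkinje cell dendrites, was at 1731, 1572 and 963 CPM in controls and at 948, 1113 and 825 CPM in cKO cerebella. Control replicate 3 lay within the cKO range, so the groups overlapped. For *Slc1a6* the log2 fold change was -0.56 (SE 0.23, 95% interval -1.09 to -0.04, unadjusted p = 0.0377, adjusted p = 0.339, edgeR) and -0.78 without control replicate 3 (adjusted p = 0.0361, edgeR). DESeq2 gave -0.57 (adjusted p = 0.16).

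**Figure D2:**
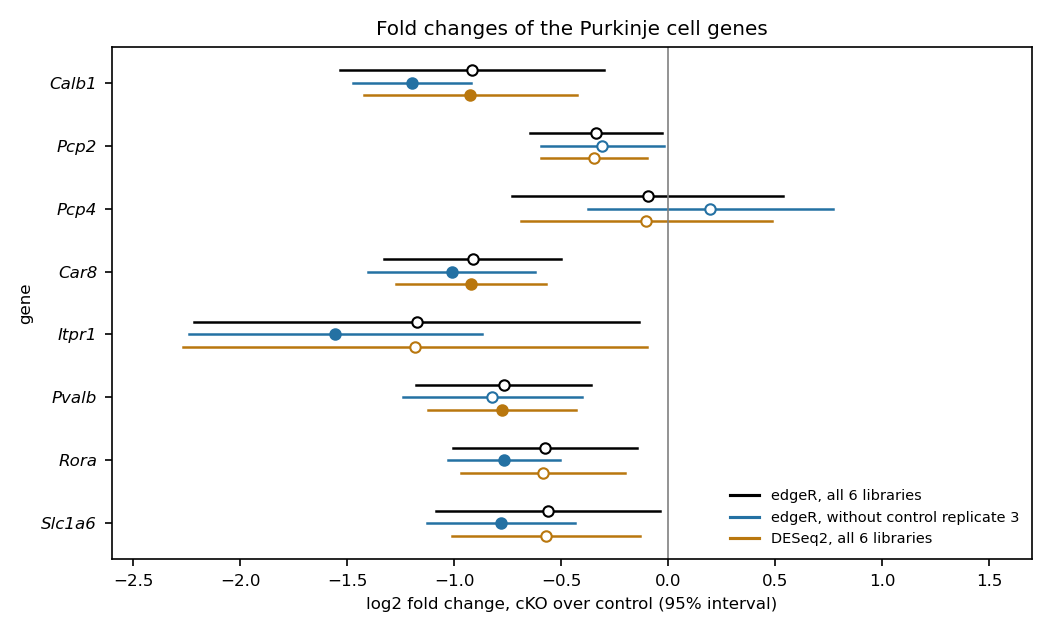
Log2 fold change of each gene, cKO over control, with its 95% interval, from edgeR on all 6 libraries, edgeR without control replicate 3 and DESeq2. Filled points passed an adjusted p of 0.05. The edgeR intervals over all 6 libraries lie below 0 for 7 genes with no filled point, and *Pcp4* spans 0 in each fit.

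Summed over the 8 genes, footprints were at 15783, 14558 and 8971 CPM in controls and 7059, 8565 and 6435 CPM in cKO cerebella. The sum was higher in each control than in each cKO library, and control replicate 3 was nearer to the cKO libraries. The log2 ratio of the group means of log2 sums was -0.80, and -1.05 without control replicate 3. *Itpr1* alone supplied between 14.1% and 32.0% of the sum. Leaving it out, the sums were 10736, 10746 and 7617 CPM in controls and 5445, 6566 and 5525 CPM in cKO cerebella, and the groups still did not overlap.

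The shares of the single genes in this sum overlapped between groups for 6 of the 8. The share of *Calb1* was 20.7 ± 2.61% in controls and 20.2 ± 2.63% in cKO (SD, n = 3), and that of *Pvalb* was 14.3 ± 3.69% and 14.2 ± 1.95%. *Itpr1* took 24.4 ± 8.58% and 20.1 ± 5.18%, and *Pcp2* took 10.7 ± 3.96% and 14.2 ± 1.83%. *Slc1a6* took 10.97%, 10.8% and 10.7% of the sum in controls and 13.4%, 13.0% and 12.8% in cKO cerebella. *Rora* took 2.55%, 2.55% and 2.74% in controls and 3.36%, 2.78% and 3.25% in cKO cerebella. Over all 6 libraries these were the genes whose shares did not overlap between groups, and both were higher in cKO. When control replicate 3 is left out, the shares of *Pcp2* and *Pcp4*, higher in cKO, and of *Itpr1*, lower in cKO, did not overlap either. With 3 against 3 libraries the exact two-sided permutation test cannot go below p = 0.1, which both shares reached (adjusted p = 0.4 over the 8 shares). Without control replicate 3 the differences, cKO minus control, were 2.2 percentage points for *Slc1a6* and 0.575 for *Rora*, and those of the other genes were -8.97 for *Itpr1* (-4.31 with it), 5.75 for *Pcp2* (3.502), 2.01 for *Pvalb* (-0.069), -1.98 for *Calb1* (-0.522), 0.344 for *Car8* (-1.41) and 0.0741 for *Pcp4* (0.0409). Leaving out 1 library at a time, the difference ranged from -8.97 to -0.528 for *Itpr1*, 2.02 to 5.75 for *Pcp2* and 0.0211 to 0.0741 for *Pcp4*. It ranged from 2.07 to 2.38 for *Slc1a6* and 0.397 to 0.687 for *Rora*. For *Calb1* (-1.98 to 0.966), *Pvalb* (-1.52 to 2.01) and *Car8* (-2.68 to 0.344) it changed sign. Shares of a sum are tied to each other, so a smaller part for one gene raises the others.

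Across the 6 libraries the 7 genes other than *Pcp4* had a median Pearson correlation of log2 CPM of 0.82 over 21 pairs. The pairs ranged from 0.42 to 0.99, the highest being *Calb1* and *Rora*. Taken as deviations from the group means, which leaves out the group difference, the 21 correlations had a median of 0.52 and ranged from -0.46 to 0.99. The 4 below 0 were those of *Pcp2* with *Calb1*, *Rora*, *Itpr1* and *Slc1a6*. Over the 6 libraries, correlations with *Pcp4* lay between -0.37 and 0.35. These values describe 6 libraries that share the group difference and the deviation of control replicate 3. In that library the genes other than *Pcp4* divided, *Pcp2*, *Car8* and *Pvalb* lying above their own mean and *Calb1*, *Itpr1*, *Rora* and *Slc1a6* below it.

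**Figure D3:**
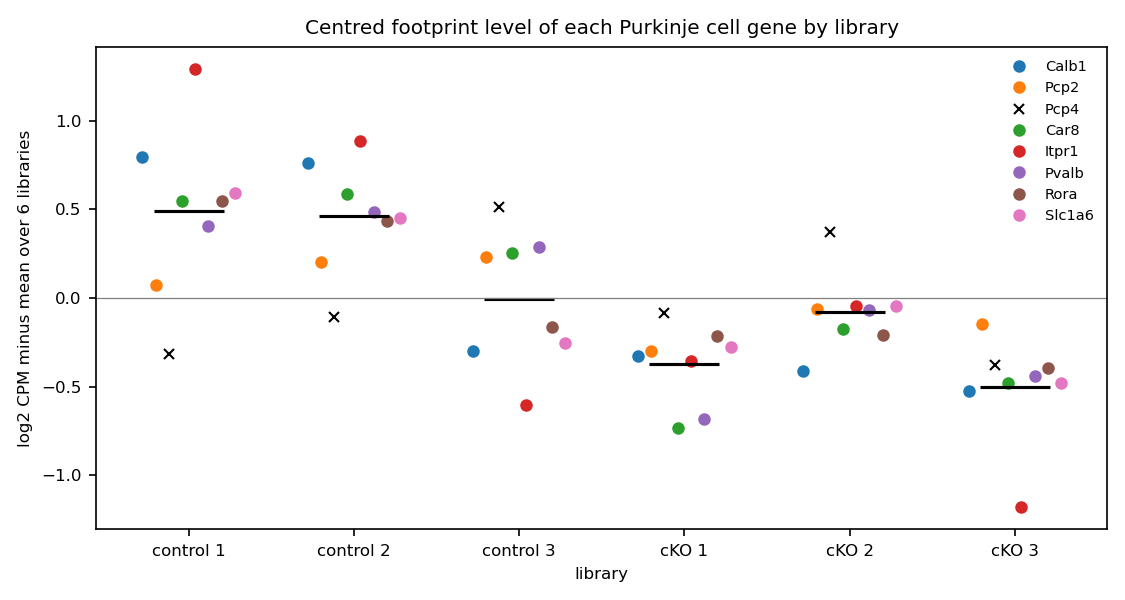
Log2 CPM of each gene minus its mean over the 6 libraries, by library, with the mean of the 8 genes as a horizontal bar and *Pcp4* as crosses. The bars are 0.49 and 0.46 in controls 1 and 2, close to 0 in control 3, and -0.37, -0.08 and -0.50 in the cKO libraries.

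Among 8202 other genes with a mean of at least 20 CPM, the 5 whose centred profile was nearest to the mean profile of the 8 genes were *Ece1*, *Hhatl*, *Slc41a3*, *Tanc1* and *Anks1b*. Their root mean square log2 difference from that profile ranged from 0.0456 to 0.0665 over 6 libraries, and their log2 fold changes from -0.69 for *Hhatl* to -0.60 for *Tanc1*. By Pearson correlation instead, the 5 nearest were *Osbpl6*, *Slc5a1*, *Strn3*, *Pcdhb20* and *Cep76*, with r from 0.994 to 0.997. The adjusted p of each was above 0.05 in edgeR's test. Over only 6 libraries many profiles can be this close.

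Levels can be compared between genes only per length of coding sequence. In controls, *Pvalb* was the highest at 5412 ± 373 CPM per kb (SD, n = 3), followed by *Calb1* at 3541 ± 1302, *Pcp2* at 2699 ± 157 and *Car8* at 2365 ± 285. The values of *Calb1*, *Pcp2* and *Car8* overlapped between libraries. Within libraries, *Calb1* was above *Pcp2* in control replicates 1 and 2 and below it in control replicate 3. *Slc1a6* at 845 ± 241, *Itpr1* at 410 ± 227 and *Rora* at 204 ± 49.6 CPM per kb followed. Across libraries *Slc1a6* and *Itpr1* overlapped, as did *Itpr1* and *Rora*. Within each control library, however, *Slc1a6* was above *Itpr1* and *Itpr1* above *Rora*. In cKO cerebella the order of the means was *Pvalb* at 3179 ± 694, *Pcp2* at 2137 ± 176, *Calb1* at 1875 ± 130, *Car8* at 1256 ± 244, *Slc1a6* at 572 ± 86.0, *Itpr1* at 182 ± 66.6 and *Rora* at 136 ± 9.74 CPM per kb. *Pcp2* thus took the place after *Pvalb* in the order of means, although its cKO values overlapped those of *Calb1*. Within libraries, *Pcp2* was above *Calb1* in cKO replicates 2 and 3 and below it in cKO replicate 1.

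Most of the same genes were nearly silent in the other material of the study, embryos at E8.5 and fibroblasts. These levels do not show which cells of the cerebellum use the genes. In CPM of the library total, without TMM factors, *Calb1* was at 2648 ± 940 in control cerebella and had 0 fragments in all 3 wild-type embryo libraries at E8.5, at least 2740-fold lower when each library is set at 3 counts. *Pcp2* also had 0 fragments in these embryos, at least 1295-fold lower, and 0 in all control fibroblast (MEF) libraries, at least 16093-fold lower. *Pvalb* had 2 fragments over the embryo libraries and 5 over the control MEF libraries. *Car8* was at 3.92 ± 0.575 CPM in embryos and 4.57 ± 0.768 in MEFs, against 1978 ± 211 in control cerebella, and *Rora* was at 1.59 ± 0.979 and 4.79 ± 0.0881 against 325 ± 74.0 (SD, n = 3). These values cross tissues whose libraries kept different fragment lengths and were compared without a test.

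*Itpr1* and *Slc1a6* were the exceptions. *Itpr1* was at 49.9 ± 14.9 CPM in wild-type embryos and 77.3 ± 2.78 in control MEFs, against 3242 ± 1748 in control cerebella (SD, n = 3). *Slc1a6* was at 3.09 ± 1.58 CPM in embryos but at 76.9 ± 12.1 in control MEFs, 17.7-fold below the 1359 ± 366 of control cerebella. In MEFs lacking *Hbs1l*, *Pelo* or *Upf2*, a factor of nonsense-mediated decay, *Slc1a6* was at 41.5 ± 0.877, 26.3 ± 2.59 and 44.7 ± 14.3 CPM (SD, n = 3). In RNA of the 11 MEF libraries its TPM ranged from 14.7 to 26.3, whereas the highest TPM was 6.36 for *Itpr1*, 3.20 for *Car8*, 1.13 for *Calb1*, 1.12 for *Rora*, 0.543 for *Pcp4*, 0.153 for *Pcp2* and 0.0729 for *Pvalb*. RNA was sequenced from MEFs only, so a difference in footprints of the cerebellum cannot be divided into RNA level and translation.

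**Figure D4:**
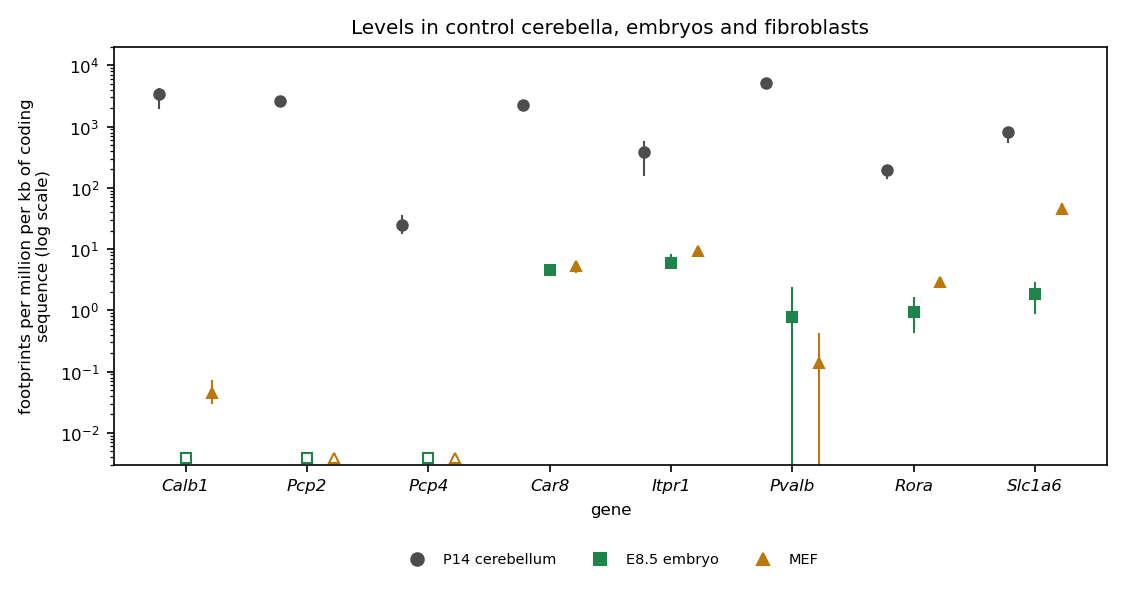
Footprints in CPM of the library total per kb of coding sequence (log axis) of each gene in control cerebella, wild-type embryos and control MEFs. Points are means of 3 and lines run from the lowest to the highest value, down to the axis where the lowest is 0, and open symbols at the lower edge had 0 fragments. Cerebella are above both other tissues for all 8 genes.

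The other genes of the signalling pathway of the Purkinje dendrite had fold changes of the same sign. Of 18 genes of IP3 and calcium signalling, 18 were tested, 18 had a log2 fold change below 0 and 0 passed an adjusted p of 0.05 in edgeR's test, with 13 lower at an unadjusted p below 0.05 (6.28% of all tested genes) and 6 called lower by DESeq2 (1.4% of genes). Their median was -0.64, and 5 of the 18 had groups that did not overlap with cKO lower, against 8.91% of all tested genes. *Homer3*, a scaffold protein of the postsynaptic density, was at 389, 397 and 266 CPM in controls and 162, 248 and 194 CPM in cKO cerebella (log2 fold change -0.80, SE 0.21, unadjusted p = 0.00435, edgeR). *Gng13*, a G protein subunit, was at 774, 832 and 933 CPM against 396, 653 and 438 CPM (-0.77, SE 0.20), and there control replicate 3 was the highest library. Without control replicate 3, 7 of the 18 passed the threshold, all lower, against 2.16% of genes, and the median was -0.77.

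Of 18 genes of the Purkinje synapse, channels and cytoskeleton, 18 had a log2 fold change below 0 with a median of -0.60, 12 of them at an unadjusted p below 0.05, against 6.28% of all tested genes. edgeR called 0 of them over all libraries and DESeq2 called 5 (1.4% of genes), and edgeR called 8 lower without control replicate 3 (2.16% of genes), with a median of -0.78. *Aldoc*, the aldolase that marks zebrin stripes and is also used by astrocytes, was at 5102, 4878 and 2640 CPM in controls and 1824, 2461 and 1984 CPM in cKO cerebella (-1.01, SE 0.26). *Ppp1r17*, a phosphatase inhibitor of Purkinje cells, was at 473, 482 and 290 CPM against 196, 236 and 210 CPM (-0.96, SE 0.20). Of 15 genes of Purkinje cell transcription and development, 14 were below 0 with a median of -0.33. edgeR called 0 of them and DESeq2 1 lower (1.4% of genes). For 3 of the 15 the groups did not overlap, with cKO lower, against 8.91% of all tested genes. Of these 15, 1 was lower at an unadjusted p below 0.05, a share near the 6.28% of all tested genes. Leaving out control replicate 3, edgeR called 3 of the 15 lower (2.16% of genes) and the median was -0.51. The gene with an unadjusted p below 0.05 was *Kitl*, the ligand by which Purkinje cells signal to interneurons, at 111, 116 and 110 CPM in controls and 64.4, 78.9 and 73.0 CPM in cKO cerebella (-0.64, SE 0.12, adjusted p = 0.105, edgeR). For *Kitl*, control replicate 3 was close to the others.

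Footprints of a whole cerebellum are read relative to those of all its cell types, whose markers were counted in the same libraries. In such bulk samples fewer Purkinje cells, less RNA in each of them and a larger amount of other RNA cannot be told apart. Of 14 genes of granule cell progenitors, the cells in which the transgene acts, 12 were higher in cKO, with a median log2 fold change of 1.01. At an unadjusted p below 0.05 in edgeR's test 9 were higher, against 7.14% of all tested genes, and 9 had groups that did not overlap with cKO higher, against 9.38%. In edgeR's test 2 of the 14 rose past an adjusted p of 0.05, *Sfrp1*, from 31.6 ± 3.08 to 87.6 ± 8.0 CPM, and *Insm1*, from 44.9 ± 5.54 to 120 ± 12.4 CPM (SD, n = 3). DESeq2 called 9 of the 14 higher, against 1.98% of genes, and edgeR called 6 higher without control replicate 3, against 1.68% of genes (median 0.98). The summed level of all 14 genes was 415 to 456 CPM in controls and 687 to 917 CPM in cKO. Of 14 genes of mature granule neurons, 13 were below 0 with a median of -0.43 and 0 passed in edgeR's test (4 lower at an unadjusted p below 0.05, against 6.28% of all tested genes, and 4 by DESeq2, against 1.4%). Leaving out control replicate 3, 10 of the 14 were below 0, with a median of -0.23. The sum of these 14 was 9841 to 12655 CPM in controls and 6787 to 9603 CPM in cKO. Control replicate 3 held the highest sum of this list, and its median log2 difference from the other controls was 0.52 there and -0.48 over the 8 Purkinje cell genes.

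The list of molecular layer and Golgi interneurons, of which those of the molecular layer also use *Pvalb* and *Rora*, had 11 of 13 genes below 0 with a median of -0.39, summing to 881 to 1285 CPM in controls and 746 to 901 CPM in cKO. Of the 13, 5 were lower at an unadjusted p below 0.05 and 4 had groups that did not overlap, against 6.28% and 8.91% of all tested genes. edgeR called 0 of them and DESeq2 1 (1.4% of genes), and edgeR called 3 lower without control replicate 3 (2.16% of genes), with a median of -0.52. Bergmann glia and astrocyte genes had a median of 0.08. At an unadjusted p below 0.05, 3 of the 12 were higher and 1 lower, against 7.14% and 6.28% of all tested genes. DESeq2 called 1 higher (1.98% of genes). Without control replicate 3 the median was 0.16 and edgeR called 3 of the 12 higher (1.68% of genes). These genes had sums of 10062 to 13055 CPM in controls and 10977 to 11349 CPM in cKO. Oligodendrocyte genes had a median of -0.34, with 5 of 12 lower at an unadjusted p below 0.05 (6.28% of all tested genes) and 3 called lower by DESeq2 (1.4%), and without control replicate 3 the median was -0.46 and edgeR called 1 lower (2.16%). Microglial genes had a median of 0.30 (0.38 without control replicate 3, with 1 of 6 called higher by edgeR, against 1.68% of genes), endothelial genes -0.32 (-0.46, with 2 of 6 called lower, against 2.16% of genes) and choroid plexus genes 0.51 (0.39). In the choroid plexus list *Otx2*, a transcription factor, was at 21.05 to 25.8 CPM in controls and 28.3 to 41.5 CPM in cKO (log2 fold change 0.56, SE 0.16). *Ttr*, the main transcript of choroid plexus, named after its values were seen, ranged from 943 to 4295 CPM in controls and from 3229 to 5230 CPM in cKO. Of 8 genes of the deep nuclei and hindbrain, 4 had too few counts to be tested, and the other 4 had a median of 0.92, and 0.83 without control replicate 3. Of the tested 4, 2 were higher at an unadjusted p below 0.05 in edgeR's test, against 7.14% of all tested genes. DESeq2 called 2 higher, against 1.98%. These were low counts. *Chat*, which marks cholinergic neurons, was at 0.166, 0 and 0.0908 CPM in controls and 1.25, 0.638 and 1.80 CPM in cKO. *Slc5a7* was at 3.41, 2.64 and 3.41 CPM in controls and 9.61, 3.65 and 9.06 CPM in cKO (log2 fold change 1.26, SE 0.35). The part of these differences in the Purkinje cell values was not tested.

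**Figure D5:**
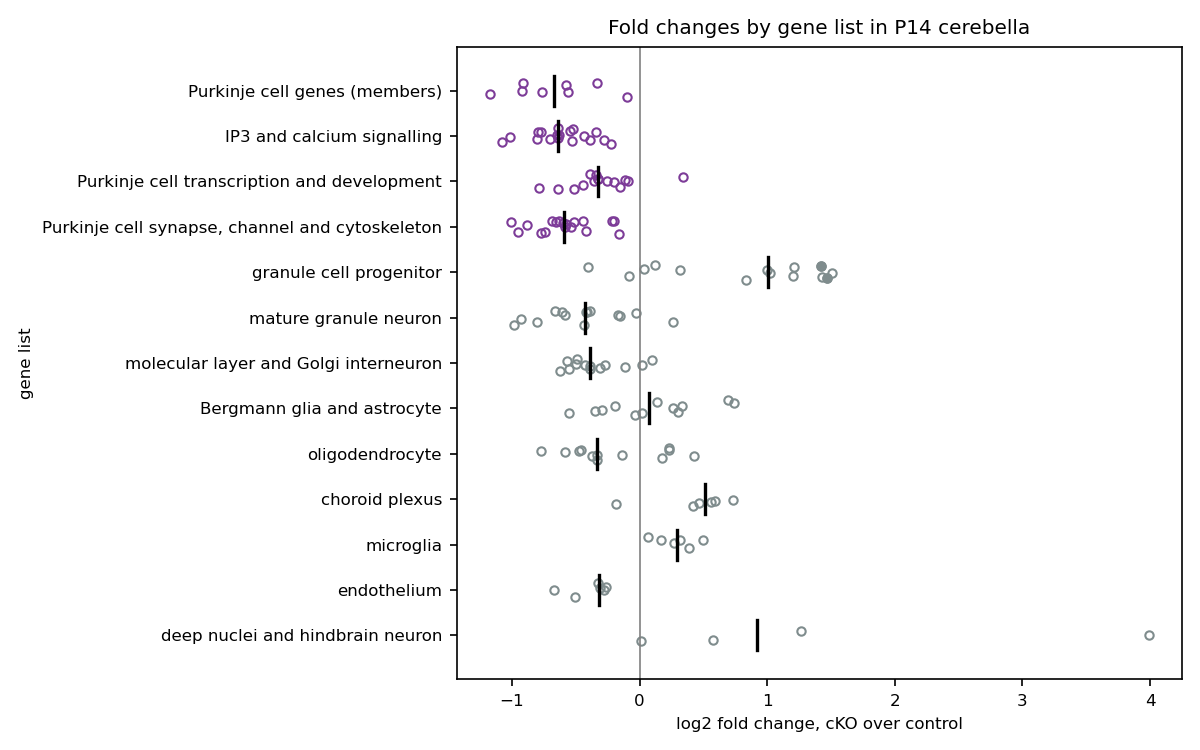
Log2 fold changes, cKO over control, of the tested genes of 13 lists, with Purkinje cell lists in purple, others in grey, the median of each list as a black bar and filled points for an adjusted p at or below 0.05. Points of the 4 Purkinje cell lists lie below 0 except 1, and the 2 filled points are granule cell progenitor genes.

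Codon content was looked at because the *n-Tr20* allele of C57BL/6J slows ribosomes at AGA codons. The study's genotype table does not list the allele of the control cerebella. The study found no significant rise of ribosome occupancy at AGA codons in its *Hbs1l*-deficient cerebella. The longest complete coding transcript held 27 AGA codons of 2749 in *Itpr1* (0.982%), 5 of 523 in *Rora*, 4 of 291 in *Car8* (1.37%), 2 of 261 in *Calb1*, 2 of 561 in *Slc1a6*, 1 of 110 in *Pvalb*, 2 of 62 in *Pcp4* (3.23%) and 0 of 136 in *Pcp2*. *Pcp2*, with none, had the fold change nearest to 0 among the 7 genes with readable counts, while *Pcp4*, with the highest share, had one nearer to 0 still, from counts that cannot be taken as its level. *Calb1* and *Car8* had nearly equal log2 fold changes of -0.92 and -0.91 at 0.766% and 1.37% AGA. With 8 genes this is a description only.

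Because *Rora* encodes a nuclear receptor, promoter windows were searched on both strands for AGGTCA, 6 letters that sites of many nuclear receptors share. Bases beside these letters were not searched, so a match is not particular to *Rora*. RefSeq windows of GRCm38.p6, from 250 bases before to 50 after a start site, were matched by symbol for 5 of the 8 genes, giving 9 windows. The 6 letters were found in 4 of these windows, of 2 genes, *Pcp2* and *Pcp4*, while 16.26% of all 32851 windows hold them, and 2 of the *Pcp2* windows overlap and hold the same copy. The 250 bases before the outermost start of *Pcp2* and the start of *Pcp4* are shown with the match in capitals. In *Pcp2* (chr8:3625548-3625797, minus strand) it begins at position -12 from the start, and in *Pcp4* (chr16:96467356-96467605, plus strand) it lies on the reverse strand at -164.
Pcp2 upstream: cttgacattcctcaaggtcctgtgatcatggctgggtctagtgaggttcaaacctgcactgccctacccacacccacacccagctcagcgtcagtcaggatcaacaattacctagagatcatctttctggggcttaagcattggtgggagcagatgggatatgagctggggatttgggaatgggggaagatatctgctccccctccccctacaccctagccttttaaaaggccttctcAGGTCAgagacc
Pcp4 upstream: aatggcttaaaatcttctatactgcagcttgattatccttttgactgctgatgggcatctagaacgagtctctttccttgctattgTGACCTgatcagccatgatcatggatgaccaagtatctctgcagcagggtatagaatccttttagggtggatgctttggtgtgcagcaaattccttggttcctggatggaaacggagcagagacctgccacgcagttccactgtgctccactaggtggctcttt
A match in a window describes letters and not binding. *Pcp2* and *Pcp4*, with a match, had log2 fold changes of -0.34 and -0.10, and *Pvalb*, *Rora* and *Slc1a6*, whose windows hold none, had -0.77, -0.58 and -0.56.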

How the data were processed

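Per the labels and the study's methods, ribosome protected fragments were sequenced from 6 cerebella, 6 embryo pools and fibroblasts. The authors deposited raw counts of fragments per gene on coding sequence, made with Bowtie2 2.2.3, HISAT2 2.1.0 and featureCounts on mm10 with the Gencode M24 annotation, without normalization. For fibroblast RNA they deposited estimated counts and TPM from kallisto 0.42.4, read here per gene. Gene positions and coding lengths came from Gencode M21 of the same assembly, and promoters from RefSeq.

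The 8 genes and all gene lists were chosen with earlier results of these data known. All members were reported in full. Other lists were given as counts and medians, and by name up to 3 genes a direction that passed the threshold or had an unadjusted p below 0.05 and groups that did not overlap. *Ttr* was named outside this rule. Some genes of the lists are not reported here by name.

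The 3 cKO and 3 control cerebella were fitted with edgeR 4.0.16 in R 4.3.3 (default filter on low counts, TMM factors, quasi-likelihood test), leaving out 100 genes with histone symbols, with Benjamini-Hochberg adjustment over 14430 genes and a threshold of 0.05. All 8 members passed the filter. Centred log2 CPM used a pseudocount of 0.5. Shares were compared by an exact two-sided permutation test over libraries. The fits were tested on simulated data. Alternatives were DESeq2 1.42.0, other scaling factors, no filter, histone genes kept, thinning to the smallest library, a replicate block and leaving out each library.

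Libraries held between 10919139 and 22591768 fragments. Fragments carry no molecular identifiers, so counts are not independent molecules. Each cerebellum replicate is 1 mouse, and the embryo libraries were made from pooled embryos. For tissue levels, counts were divided by the library total. Control fibroblast libraries with the same number in different pools differed by little more than sampling noise (chi-square per gene 1.10 to 1.19, against 4.06 to 12.6 for different numbers), so they were summed and counted as 1 sample.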

Additional observations from a re-analysis of the deposited data

How the results depend on the processing

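Nothing in the labels says that a replicate number pairs cerebella, and the correlations did not all exceed 0.1. The correlation of deviations from the group means was 0.36 for number 1, -0.23 for number 2 and 0.22 for number 3, and control replicate 2 correlated best with another number. With a replicate block, edgeR called 0 genes in all and 0 of the 8 (2090 genes and 7 of the 8 at an unadjusted p below 0.05), and the SE of *Itpr1* went from 0.46 to 0.22 (unadjusted p from 0.0309 to 0.00216). The rank correlation, across genes, of coding length with the log2 difference of a library from the others of its group was 0.53 and 0.43 for number 1 (control and cKO), 0.15 and 0.11 for number 2 and -0.43 and -0.57 for number 3. The total of 9 called genes became 482 with DESeq2, 16 with no filter and 67 with histone genes kept, and 0 to 560 when 1 library was left out. Members past the threshold were 3 with DESeq2 (*Calb1* -0.93, *Car8* -0.92, *Pvalb* -0.78) and 0 to 5 when 1 library was left out, the 5 only without control replicate 3. Leaving out 1 library at a time, log2 fold changes ranged from -1.20 to -0.74 for *Calb1*, -0.39 to -0.27 for *Pcp2*, -1.07 to -0.79 for *Car8*, -1.56 to -0.78 for *Itpr1*, -0.95 to -0.63 for *Pvalb*, -0.77 to -0.44 for *Rora* and -0.78 to -0.40 for *Slc1a6*. *Pcp4* ranged from -0.32 to 0.20 and changed sign without control replicate 3 (0.20) and without cKO replicate 3 (0.07). The cause was not tested. The other 7 genes were below 0 in all 14 alternative fits, of which the use of library totals without factors was added after seeing the data. The summed log2 ratio ranged from -1.05 to -0.65 when 1 library was left out and was -0.71 with library totals. Thinning to the smallest library changed no call among the 8.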
